A study of Mus musculus with 6 samples.

Results

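Transcripts of 9 genes that act on crossovers or mismatched DNA during meiosis, Msh4, Msh5, Hfm1, Tex11, Rnf212, Mcmdc2, Mlh3, Exo1 and Mus81, were followed in fetal mouse ovaries after exposure of the dams to painkillers. The genes were chosen by name for their roles in meiosis, with earlier results of these data known. All 9 were found by Ensembl identifier among the 48709 genes of the count table and passed the filter on low counts. Ovaries came from 13.5 days post-coitum (dpc) embryos of CD1 dams, an outbred mouse stock. Dams were gavaged from 10.5 to 13.5 dpc, 4 times a day at intervals of 3 h. Control dams received the ethanol diluent, and exposed dams received acetaminophen (APAP, 30 mg/kg per day) with ibuprofen (IBU, 15 mg/kg per day). Each group had 3 libraries of polyadenylated RNA, each made from a pool of gonads from a pair of dams, so that embryos within a pool share mothers and single embryos were not measured. For the exposed libraries the exposure label gives both drugs although the titles mention only IBU, and the group is called APAP+IBU here.

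Meiotic recombination begins with programmed breaks in the DNA, and most of the breaks are repaired without exchange of chromosome arms. A minority become crossovers, which hold homologous chromosomes together until they separate. In mice most crossovers need the MSH4-MSH5 complex, which holds recombination intermediates, and an endonuclease that contains MLH3, which acts with EXO1 to resolve them, while MUS81 serves a smaller pathway. Female mouse germ cells enter meiosis in the fetal ovary at about the stage sampled here, and crossovers are completed later in fetal life.

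Total counts per library ran from 37811968 to 48954631, and the 9 genes had between 117 and 4848 counts per library. Levels are CPM, read counts relative to the size of the library after TMM scaling, and RPKM, which also divides by the length of the exons, was used where levels of different genes are compared. The germ cell gene Ddx4 was between 191 and 268 CPM in the 6 libraries, and none of the 8 germ cell and 8 supporting cell markers of the ovary had a count of 0. Replicate 3 of both groups stood apart in liver RNA. Summed over 11 liver genes, these libraries reached 1998 CPM (control) and 3249 CPM (APAP+IBU), where the remaining 4 lay between 195 and 567 CPM. Results are therefore given for all 6 libraries and again without the replicate 3 libraries. This omission was chosen with earlier results of these data known, so the calls without replicate 3 are not an independent test. The summed level of 10 spermatid genes was 38.6 to 131 CPM in control and 5.61 to 9.19 CPM in APAP+IBU libraries, and only Acrv1 was at 0, in APAP+IBU replicates 1 and 3. The summed level of 6 spermatocyte genes was 28.5 to 60.1 CPM in control and 20.5 to 24.2 CPM in APAP+IBU libraries. For 6 Sertoli cell genes the sums were 24.3 to 42.0 and 19.0 to 24.8 CPM, and for 10 erythroid genes 5941 to 13846 and 2513 to 8732 CPM. The spermatid and spermatocyte sums were highest in control replicate 1, at 131 and 60.1 CPM. The libraries are of fetal ovaries, and how RNA of spermatid and spermatocyte genes came into them was not tested. The part of this RNA and of the other cells in the values below was not tested. In such bulk RNA, fewer cells of a type and less RNA per cell cannot be told apart.

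**Figure D1:**
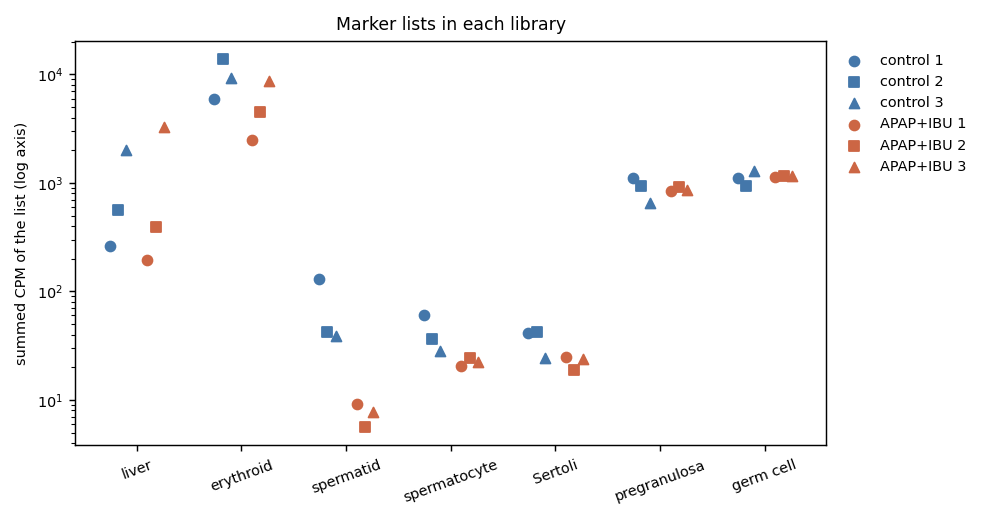
Summed level of each marker list in each library, in CPM on a log axis, with control and APAP+IBU libraries in separate colours and one marker shape per replicate number. Liver RNA was highest in replicate 3 of both groups, at 1998 and 3249 CPM, and the spermatid sum was 38.6 CPM or more in each control library, against 5.61 to 9.19 CPM in the APAP+IBU libraries.

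With all 6 libraries, Hfm1, Rnf212, Msh5, Mcmdc2 and Msh4 had the highest log2 fold changes of the 9 genes, from 0.65 to 0.93, but none of the 9 passed the test. With replicates 1 and 2 of each group, 7 of the 9 genes were higher in APAP+IBU ovaries, Hfm1 the most at a log2 fold change of 1.39, while Exo1 and Mus81 did not pass. In APAP+IBU replicate 3, 7 of the 9 levels lay within the range of the 3 controls and 2, those of Tex11 and Mcmdc2, lay below it. By the quasi-likelihood test of edgeR, adjusted by Benjamini-Hochberg over the 20167 genes tested in 6 libraries, 0 of 9 had an adjusted p under 0.05, as for 0.0% of all genes. At an unadjusted p under 0.05, 3 of 9 were higher (Hfm1, Rnf212 and Msh5), against 3.0% of all tested genes, and 0 of 9 were lower, against 3.21%. This count became 0 without control replicate 1, APAP+IBU replicate 1 or APAP+IBU replicate 2, and 6 without APAP+IBU replicate 3. The share of all tested genes at that threshold in these smaller fits is not given here. DESeq2 called 0 of 9 after adjustment (0.849% of genes with an adjusted p) and put 5 of 9 higher at an unadjusted p under 0.05 (2.73% of genes), adding Msh4 and Mcmdc2.

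On the 4 libraries without replicate 3, the 7 genes higher stood beside 14.2% of 20633 tested genes called higher, and 0 of 9 were lower beside 12.9%. The median log2 fold change of the 9 genes was 0.98 there and 0.65 with all 6 libraries, against -0.0032 and -0.0047 over all tested genes. The 7 calls were made with 2 libraries per group. Leaving out 1 more library left a single library in 1 group, so only log2 fold changes are given here for these fits. They ran from 0.44 to 0.80 for Tex11, 0.44 to 0.52 for Mlh3 and -0.48 to -0.09 for Mus81. The median of the 9 was 0.72 to 1.13. Genes of low GC content had higher fold changes than genes of high GC content in this contrast. In the 4 libraries the median log2 fold change was 0.39 in the quartile of genes with the lowest and -0.33 in the quartile with the highest GC content. After a correction for gene length and GC content, 4 of the 9 were higher on the 4 libraries (Hfm1, Rnf212, Msh5 and Msh4), beside 5.66% of all genes, 0 of 9 were lower, beside 8.25%, and the median of the 9 was 0.62.

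**Figure D2:**
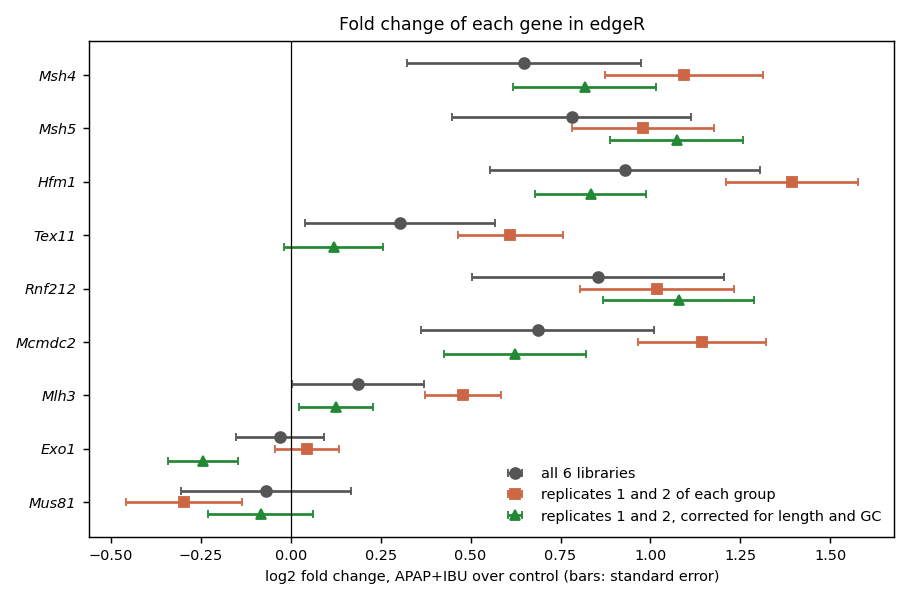
Log2 fold change (APAP+IBU over control) of the 9 genes with its standard error, for all 6 libraries, for replicates 1 and 2 of each group, and for these 4 libraries after the correction for gene length and GC content. Values of Hfm1, Msh5, Msh4 and Rnf212 lie above 0 in each of the fits, whereas those of Exo1 and Mus81 lie between -0.30 and 0.05.

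Msh4 and Msh5 encode the partners of the MutS-gamma clamp, which has no role in ordinary mismatch repair. Msh4 (ENSMUSG00000005493) lies on the minus strand of chromosome 3, from 153857149 to 153906138 (GRCm38). Its level was 8.39, 11.9 and 13.5 CPM in control replicates 1 to 3 and 18.2, 24.5 and 10.2 CPM in APAP+IBU replicates 1 to 3. APAP+IBU replicates 1 and 2 were above the controls, and APAP+IBU replicate 3 fell among them. The log2 fold change of Msh4 was 0.65 (SE 0.33, adjusted p = 0.692) with all 6 libraries and 1.09 (SE 0.22, adjusted p = 0.0134) without replicate 3, by the same edgeR test, as for each adjusted p that follows. Msh5 (ENSMUSG00000007035), on the minus strand of chromosome 17 from 35028605 to 35046745, was at 18.9, 25.4 and 16.98 CPM in the controls and 35.9, 50.1 and 19.0 CPM in the APAP+IBU libraries. The same 2 libraries were above every control, and the groups overlapped through APAP+IBU replicate 3. For Msh5 the log2 fold change was 0.78 (SE 0.33, adjusted p = 0.692) with all 6 libraries and 0.98 (SE 0.20, adjusted p = 0.0135) without replicate 3. Per length of exon, the level of Msh5 over that of Msh4 was 2.80, 2.66 and 1.57 in controls and 2.46, 2.55 and 2.32 in APAP+IBU libraries. The ratio of the partners overlapped between groups (exact two-sided permutation p = 1.0, smallest possible 0.1).

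HFM1 is a DNA helicase of the same crossover pathway, and TEX11 is an X-linked protein that promotes crossovers. Hfm1 (ENSMUSG00000043410) lies on the minus strand of chromosome 5, from 106840192 to 106926321. Its level was 30.3, 44.0 and 44.8 CPM in the controls and 86.7, 105.9 and 34.1 CPM in the APAP+IBU libraries. The mean of APAP+IBU replicates 1 and 2 was 2.59 times that of control replicates 1 and 2. APAP+IBU replicate 3 lay within the control range. The log2 fold change of Hfm1 was 0.93 (SE 0.37, adjusted p = 0.692) with all 6 libraries and 1.39 (SE 0.18, adjusted p = 0.00632) without replicate 3, the highest of the 9 genes in both. Hfm1 had the lowest GC content of the 9 in its longest transcript, 39.0%. Its log2 fold change without replicate 3 was 0.83 (adjusted p = 0.0153) after the correction for length and GC content.

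Tex11 (ENSMUSG00000009670), on the minus strand of chromosome X from 100838648 to 101059667, was at 51.2, 65.2 and 61.5 CPM in the controls and 78.4, 97.0 and 44.2 CPM in the APAP+IBU libraries. APAP+IBU replicate 3 was the lowest of the 6 libraries and APAP+IBU replicate 2 the highest. Tex11 had a log2 fold change of 0.30 (SE 0.26, adjusted p = 0.724) with all 6 libraries and 0.61 (SE 0.15, adjusted p = 0.0235) without replicate 3. Tex11, whose longest transcript holds 39.8% GC, was no longer called without replicate 3 after the correction for length and GC content (log2 fold change 0.12, adjusted p = 0.602).

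RNF212 is a RING-type protein that stabilises MSH4-MSH5 at a subset of sites, through the SUMO pathway. Rnf212 (ENSMUSG00000055385), on the minus strand of chromosome 5 from 108729290 to 108774982, had the lowest counts of the 9. Its level was 3.41, 4.26 and 2.69 CPM in the controls and 7.45, 7.86 and 3.38 CPM in the APAP+IBU libraries. APAP+IBU replicates 1 and 2 were above every control, and APAP+IBU replicate 3 was above control replicate 3 but below control replicates 1 and 2. The log2 fold change of Rnf212 was 0.85 (SE 0.35, adjusted p = 0.692) with all 6 libraries and 1.02 (SE 0.21, adjusted p = 0.0154) without replicate 3. With the correction for length and GC content it was 1.08 (adjusted p = 0.0172) without replicate 3.

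MCMDC2 is a minichromosome-maintenance-like protein needed for strand exchange between homologues. Mcmdc2 (ENSMUSG00000046101) lies on the plus strand of chromosome 1, from 9908638 to 9942085, and 127 bases of its exons (2.15%) overlap the exons of Snhg6 on the other strand. Its level was 9.86, 9.61 and 12.9 CPM in the controls and 18.04, 24.5 and 9.55 CPM in the APAP+IBU libraries. APAP+IBU replicates 1 and 2 were again above the controls, and APAP+IBU replicate 3 was the lowest library. Its log2 fold change was 0.69 (SE 0.32, adjusted p = 0.692) with all 6 libraries and 1.14 (SE 0.18, adjusted p = 0.00721) without replicate 3. After the correction for length and GC content the latter was 0.62 (adjusted p = 0.0674), and the call was lost.

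**Figure D3:**
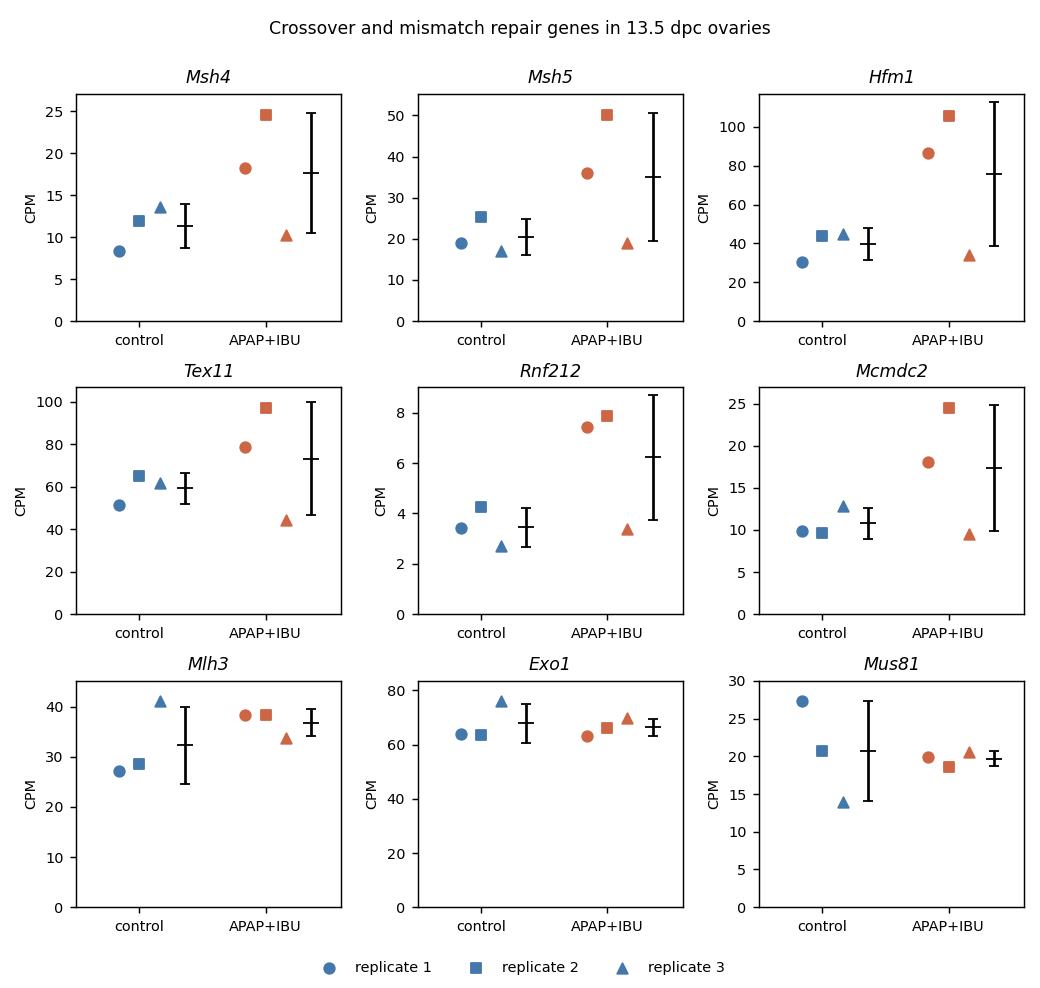
Level of each of the 9 genes in each library, in CPM from 0, with one marker shape per replicate number and the mean ± SD of the 3 libraries beside each group. In Msh4, Msh5, Hfm1, Tex11, Rnf212 and Mcmdc2, APAP+IBU replicates 1 and 2 lie above every control and APAP+IBU replicate 3 lies within or below the control range. The groups overlap in each of the 9 genes, Exo1 and Mus81 included.

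Among these factors, the stretch before the start of transcription in RefSeq (GRCm38.p6) was read for 6 genes. RefSeq starts can differ from the GENCODE starts that bound the gene positions given here. The windows of Msh4 and Hfm1 lay wholly inside the GENCODE genes, outside their exons, and those of Msh5, Mus81 and 1 of the Mlh3 starts lay partly inside. Windows of Tex11, Mcmdc2 and Exo1 were not read here. Motifs were searched on both strands in the 250 bases before the RefSeq start, and a match is a description of letters only. CNCCTCAG, the core recognised by the meiotic regulator STRA8, was found in 2 of 6 genes, Hfm1 and Msh5, and in 6.42% of all 32851 windows. TTCCCGC, an E2F-type motif, was found in 2 of 6, Rnf212 and Msh5, and in 3.82% of all windows. CACGTG and TGACGTCA were found in 0 of 6, and in 6.02% and 1.55% of all windows. These 3 stretches are shown because they hold these letters, in capitals, where the minus-strand match reads as the reverse complement. They are chr5:106925891-106926140 of Hfm1 (match beginning 66 bases before the start), chr5:108775028-108775277 of Rnf212 (87 bases before) and chr17:35046678-35046707 of Msh5 (82 and 65 bases before), each written along the minus strand as the gene is read. The stretches of Hfm1 and Msh5 thus lie inside the GENCODE genes, downstream of their GENCODE starts, and that of Rnf212 lies upstream of its GENCODE gene.
Hfm1: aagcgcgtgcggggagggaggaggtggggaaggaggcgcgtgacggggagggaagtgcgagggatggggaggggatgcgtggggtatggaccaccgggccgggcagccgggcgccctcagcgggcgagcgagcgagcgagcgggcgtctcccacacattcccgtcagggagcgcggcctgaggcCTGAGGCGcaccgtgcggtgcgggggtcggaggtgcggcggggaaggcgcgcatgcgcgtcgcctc
Rnf212: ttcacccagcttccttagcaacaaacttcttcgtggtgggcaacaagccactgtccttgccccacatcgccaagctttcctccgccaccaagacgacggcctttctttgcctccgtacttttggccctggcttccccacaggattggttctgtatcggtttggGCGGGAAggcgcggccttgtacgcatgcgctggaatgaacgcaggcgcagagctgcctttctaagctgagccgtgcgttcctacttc
Msh5: cggCTGAGGTGacggaaaagGCGGGAAagt

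MLH3 is a subunit of the endonuclease that resolves crossover intermediates. Mlh3 (ENSMUSG00000021245), on the minus strand of chromosome 12 from 85234520 to 85270599, was at 27.2, 28.6 and 41.1 CPM in the controls and 38.3, 38.4 and 33.7 CPM in the APAP+IBU libraries. Control replicate 3 was the highest of the 6 libraries, and the groups overlapped. For Mlh3 the log2 fold change was 0.19 (SE 0.18, adjusted p = 0.752) with all 6 libraries and 0.48 (SE 0.11, adjusted p = 0.0178) without replicate 3, and after the correction for length and GC content the latter was 0.13 (adjusted p = 0.445).

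EXO1 is an exonuclease of mismatch repair that also acts with MLH3, and MUS81 is a structure-specific endonuclease with EME1 as its partner. Exo1 (ENSMUSG00000039748), on the plus strand of chromosome 1 from 175880581 to 175913489, was at 63.9, 63.4 and 76.0 CPM in the controls and 63.3, 66.2 and 69.7 CPM in the APAP+IBU libraries. The groups overlapped, with less spread relative to the mean than in any of the genes above. Exo1 had a log2 fold change of -0.03 (SE 0.12, adjusted p = 0.939) with all 6 libraries and 0.05 (SE 0.09, adjusted p = 0.736) without replicate 3.

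Mus81 (ENSMUSG00000024906), on the minus strand of chromosome 19 from 5482345 to 5488402, shares 173 bases (4.85%) of its exons with Efemp2 on the other strand. Its level was 27.3, 20.7 and 14.004 CPM in the controls and 19.9, 18.6 and 20.6 CPM in the APAP+IBU libraries. The controls spread around the exposed libraries, with control replicate 1 the highest and control replicate 3 the lowest of the 6. Between groups, Mus81 had a log2 fold change of -0.07 (SE 0.24, adjusted p = 0.926) with all 6 libraries and -0.30 (SE 0.16, adjusted p = 0.208) without replicate 3. Per length of exon, Mus81 over Eme1 was 0.895, 0.722 and 0.447 in controls and 0.729, 0.784 and 0.603 in APAP+IBU libraries (exact two-sided permutation p = 0.8).

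On the RPKM scale, Tex11 had the highest and Msh4 the lowest level of the 9 in both groups. In controls the order was Tex11 (16.4 ± 2.00 RPKM, SD, n = 3), Exo1 (8.05 ± 0.85), Hfm1 (5.93 ± 1.22), Mus81 (5.80 ± 1.86), Mlh3 (4.28 ± 1.012), Msh5 (3.69 ± 0.80), Rnf212 (2.096 ± 0.475), Mcmdc2 (1.82 ± 0.31) and Msh4 (1.63 ± 0.38). Neighbours from Hfm1 to Msh5 and from Rnf212 to Msh4 differed by less than the larger of their SDs, whereas Tex11 was apart from Exo1 in every control. In APAP+IBU ovaries the mean of Hfm1 (11.3 ± 5.55 RPKM) was above that of Exo1 (7.88 ± 0.38 RPKM), and that of Msh5 (6.34 ± 2.82 RPKM) was above those of Mus81 (5.52 ± 0.28 RPKM) and Mlh3 (4.87 ± 0.35 RPKM), but the ranges of these neighbours overlapped. No group separation was complete with 6 libraries. In 0 of 9 genes was every APAP+IBU library above every control (4.78% of all tested genes), and in 0 of 9 was every one below (5.92%). Without replicate 3, 7 of 9 were fully above (33.3% of all tested genes) and 1 of 9, Mus81, was fully below (35.5%).

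The levels were also set beside those of Ddx4 and Dazl, RNA-binding proteins of germ cells. Of the 8 germ cell markers these were the 2 with a log2 fold change above 0 over 6 libraries (0.10 and 0.35), while the others, such as Pou5f1 (-0.49) and Dppa3 (-0.66), were below 0, so that the ratios hold for this reference and not for germ cell markers in general. The geometric mean of their levels was 280, 269 and 385 CPM in controls and 380, 385 and 327 CPM in APAP+IBU libraries. Relative to that mean, Mlh3 was at 10.3% ± 0.53 (SD, n = 3) in controls and 10.1% ± 0.19 in APAP+IBU ovaries, and its 6 values lay between 9.73 and 10.7%. Tex11 was at 19.5% ± 4.26 and 19.8% ± 5.87. Hfm1 was at 10.8, 16.3 and 11.6% in controls and 22.8, 27.5 and 10.4% in APAP+IBU libraries, so that replicates 1 and 2 of the exposed group remained above all controls. Mcmdc2 held between 3.34 and 3.57% in the controls and was at 4.75, 6.35 and 2.92% in the APAP+IBU libraries. Exo1 was at 22.8, 23.6 and 19.7% in controls and 16.7, 17.2 and 21.3% in APAP+IBU libraries. The exact two-sided permutation p over the 9 genes ran from 0.2 to 1.0, where 3 against 3 cannot go below 0.1.

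**Figure D4:**
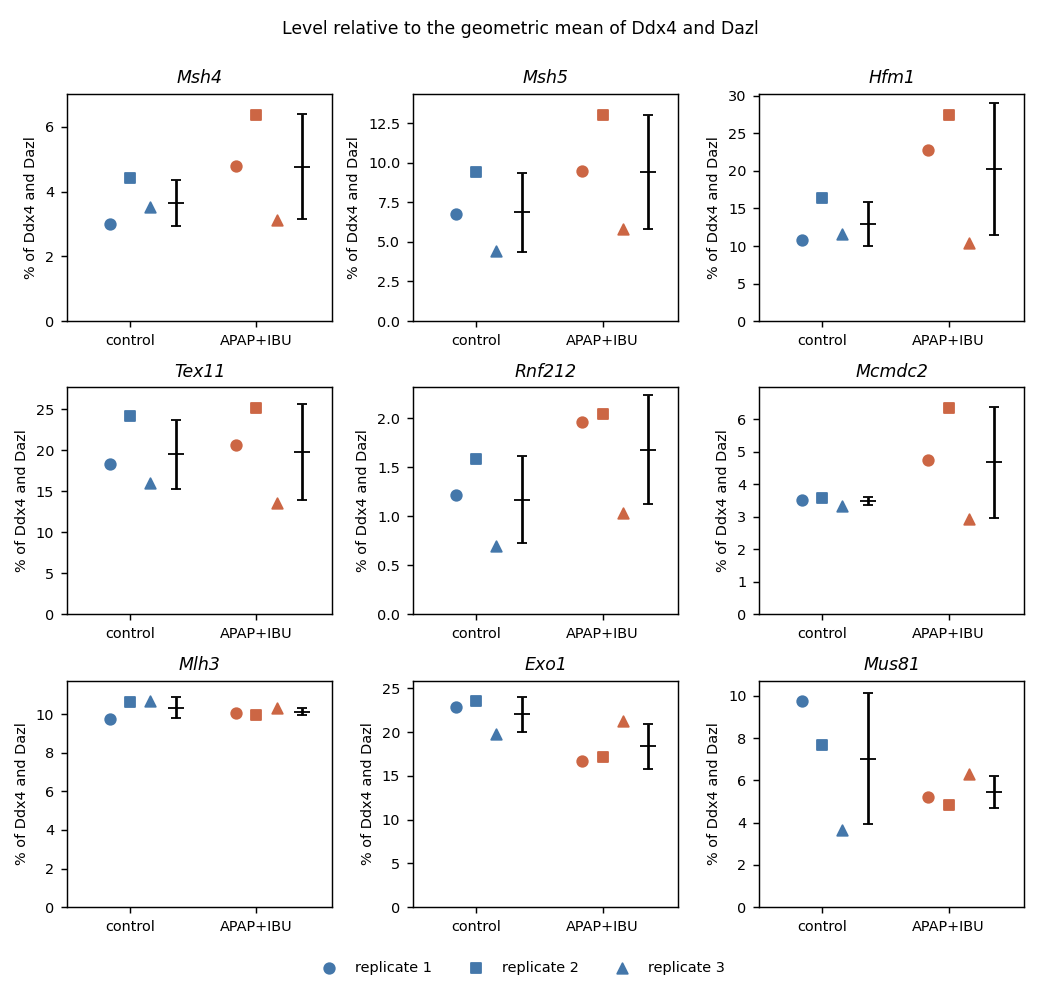
Level of each of the 9 genes as a percent of the geometric mean of Ddx4 and Dazl in the same library, with the mean ± SD of the 3 libraries beside each group. Mlh3 stays near 10% in all 6 libraries, while Hfm1 is at 22.8 and 27.5% in APAP+IBU replicates 1 and 2 and between 10.4 and 16.3% in the other libraries.

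Sycp3, a protein of the chromosome axis and a marker of early meiotic prophase, was at 120, 156 and 117 CPM in controls and 223, 280 and 106 CPM in APAP+IBU libraries, the same libraries being high as for Hfm1. Per length of exon, Hfm1 over Sycp3 was 0.0476, 0.0534 and 0.0721 in controls and 0.0736, 0.0715 and 0.0610 in APAP+IBU libraries (exact two-sided permutation p = 0.3). Msh4 over Sycp3 was 0.0160 ± 0.0045 and 0.0163 ± 0.0014 (SD, n = 3 in each group, exact permutation p = 0.9), and Msh5 over Sycp3 was 0.0354 ± 0.0021 and 0.0397 ± 0.0024 (exact permutation p = 0.2). Relative to Sycp3 the groups overlapped for each of the 3 genes. Without replicate 3 the log2 fold change of Sycp3 itself was 0.88 (adjusted p = 0.00929), and 0.05 (adjusted p = 0.846) after the correction for length and GC content, where Msh4, Msh5 and Hfm1 had 0.82, 1.07 and 0.83. These ratios were not corrected for GC content. Stra8, which drives entry into meiosis, was at 333, 319 and 208 CPM in controls and 212, 274 and 156 CPM in APAP+IBU libraries, with a log2 fold change of -0.42 (SE 0.25, adjusted p = 0.692) over 6 libraries.

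Genes with related roles were counted in the same fits. With all 6 libraries, 0 genes of the 5 related lists passed the adjusted test, and 1 crossover gene, 1 joint molecule gene and 5 genes of early meiosis were higher and 2 germ cell markers lower at an unadjusted p under 0.05. Of 6 tested genes on a list of other crossover factors, 2 were higher and 0 lower without replicate 3, with a median log2 fold change of 0.29. These were AI481877, now called Shoc1, and 1700028K03Rik, now called Spo16, whose products form a complex that promotes crossovers. AI481877 was at 23.9, 41.7 and 41.1 CPM in controls and 73.6, 95.4 and 28.5 CPM in APAP+IBU libraries, with a log2 fold change of 1.38 (SE 0.25, adjusted p = 0.0101) without replicate 3. For 1700028K03Rik the levels were 4.54, 5.73 and 5.41 and then 11.0, 13.7 and 5.15 CPM, with 1.28 (SE 0.21, adjusted p = 0.00785). Ccnb1ip1, a ubiquitin ligase that limits RNF212, was at 28.1 to 35.5 and 27.1 to 36.5 CPM, with a log2 fold change of -0.01 (SE 0.16, adjusted p = 0.982) over 6 libraries. Prr19, the lowest of the list, was at -0.07 (SE 0.29, adjusted p = 0.941).

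Of 11 genes that process joint molecules, 4 were higher and 0 lower without replicate 3, with a median of 0.22. They were Gen1 (log2 fold change 1.12), Fancm (0.86), Eme2 (0.52) and Blm (0.43, which lost its call at 0.05 after the length and GC correction), of which Fancm, Eme2 and Blm were named after their values had been seen. Gen1, a resolvase, was at 10.9, 12.5 and 28.8 CPM in controls and 23.3, 26.7 and 23.4 CPM in APAP+IBU libraries, with control replicate 3 the highest of the 6. With all 6 libraries the log2 fold change of Gen1 was 0.49 (SE 0.35, adjusted p = 0.700), and that of Rmi2, the lowest of the list, was -0.24 (SE 0.18, adjusted p = 0.702). Of 4 mismatch repair genes, Msh3, Msh6, Pms1 and Pms2, 0 passed in either set of libraries, with medians of 0.10 over 6 libraries and 0.25 without replicate 3. Msh6, a subunit of a complex that recognises mismatches, was the lowest at -0.20 (SE 0.16, adjusted p = 0.715) and Pms2, a subunit of a repair endonuclease, the highest at 0.18 (SE 0.13, adjusted p = 0.699). Of 14 genes of early meiosis, 12 were higher and 2, Stra8 and Rec8, lower without replicate 3, with a median of 0.91, and after the length and GC correction 7 were higher and 0 lower, with a median of 0.65. Sycp2, an axis protein, had the highest log2 fold change in that list, 1.36 (SE 0.43, adjusted p = 0.692) over 6 libraries. Of 8 germ cell markers, 2 were higher and 4 lower without replicate 3, and 0 higher and 1 lower after the correction. Over 6 libraries Dazl was the highest and Dppa3, of early germ cells, the lowest, at 0.35 (SE 0.19, adjusted p = 0.692) and -0.66 (SE 0.26, adjusted p = 0.692).

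**Figure D5:**
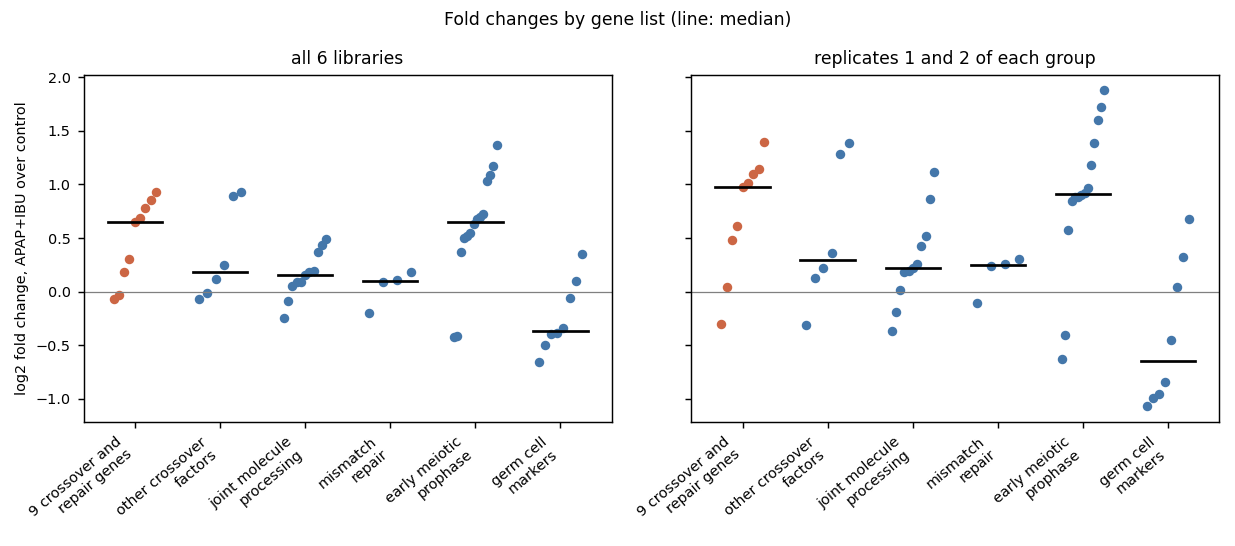
Log2 fold change (APAP+IBU over control) of each gene in the 9 genes and the related lists, with all 6 libraries and with replicates 1 and 2, where the bar is the list's median. The 9 genes have a median of 0.65 with 6 libraries and 0.98 without replicate 3, and the mismatch repair genes 0.10 and 0.25.

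A mean pattern of the 9 genes over the 6 libraries was taken from their standardised log2 CPM. Hfm1 (Pearson's r = 0.990), Mcmdc2 (0.984) and Msh4 (0.982) followed this mean most closely, Mlh3 (0.660) less, and Exo1 (-0.142) and Mus81 (-0.349) did not follow it. These values describe 6 libraries that differ in depth and cell makeup, and each gene is part of the mean. Outside the 9, the 5 tested genes most like the mean were Atf7ip2 (r = 0.995), Dock3 (0.994), Ugt8a (0.994), Pla2g4e (0.994) and Txndc16 (0.994). Atf7ip2 was at 25.5, 29.3 and 30.5 CPM in controls and 51.5, 63.7 and 26.7 CPM in APAP+IBU libraries. Ugt8a was at 42.1, 52.3 and 56.1 CPM in controls and 94.9, 120 and 41.9 CPM in APAP+IBU libraries. In each of these 5 genes APAP+IBU replicates 1 and 2 were the highest libraries, which follows from their choice by this pattern.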

How the data were processed

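Polyadenylated RNA of 13.5 dpc ovaries was sequenced from 3 control and 3 APAP+IBU pools. The authors mapped reads to mm10 with TopHat2 2.0.14 and Bowtie2 2.1.0 and counted them per gene of Ensembl release 86 with HTSeq 0.6.1, and the deposited values are raw counts without normalisation. The strand setting of the counting is not given in the sources used here, so reads in exons that overlap a gene on the other strand are uncertain. Each p-value measures the spread between these pooled libraries.

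From the counts, edgeR 4.0.16 (R 4.3.3, TMM, filterByExpr by group) was fitted to all 6 libraries, and again to replicates 1 and 2 of each group, by the quasi-likelihood test with Benjamini-Hochberg adjustment over all tested genes at 0.05. The standard error (SE) of each edgeR log2 fold change was its absolute value divided by the square root of the F statistic of that test. Single values were compared by exact two-sided permutation (scipy 1.17.1). CPM use TMM-scaled library sizes and RPKM the merged exon length, and log2 CPM a prior count of 1. GENCODE M21 on GRCm38, the assembly of mm10, gave positions, exon lengths and the GC content of the longest transcript of each gene. It matched 48349 of 48709 genes and is a later annotation than the counting used. AI481877 was matched to Shoc1 by RefSeq synonym, and Rnf212b was not analysed here. Some genes of the related lists are not reported here. Libraries of one group differed by a chi-square per degree of freedom of 19.3 to 163, so none was counted as a duplicate.

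The 9 genes, the lists and the omission of replicate 3 were chosen with earlier results of these data known. Named beside the 9 were the highest and lowest gene of each related list over 6 libraries, Ddx4, Dazl, Stra8, Sycp3 and Ccnb1ip1, and the 5 genes most correlated with the mean pattern of the 9. AI481877 meets none of these and Eme1 was used as the partner of Mus81. Alternatives were DESeq2 1.42.0, other scalings, other count filters, a block for the replicate number, a loess correction for length and GC content (span 0.3), a scale relative to Ddx4 and Dazl, and leaving out libraries. Repeats of these on the 4 libraries were added after the data were seen. The scripts were tested on simulated data.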

Additional observations from a re-analysis of the deposited data

How the results depend on the processing

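With all 6 libraries, 0 genes and 0 of the 9 crossover genes were called in edgeR, with a median log2 fold change of 0.65 among the 9. The 9 kept 0 calls under DESeq2, other scalings, other filters, the block, the length and GC correction and each omission of a library. After adjustment, DESeq2 called 235 genes and keeping all genes with a count called 120, each with 0 of the 9. At an unadjusted p under 0.05 each gave 5 of the 9, where DESeq2 put 2.73% of all genes higher. The share of all genes at that p is not given here for the fit on all genes with a count. Leaving out 1 library gave 0 to 1064 genes, the highest without control replicate 3. Of the 9, 0 to 6 had an unadjusted p under 0.05 in these fits, where the share of all genes is not given here. On replicates 1 and 2, 5607 genes and 7 of the 9 were called, with 5748 and 7 in DESeq2. After the length and GC correction 2860 genes and 4 of the 9 were called, with a median of 0.62. With that correction 6 of the 9 had an unadjusted p under 0.05, among them Exo1, which was lower (log2 fold change -0.24). The share of all genes at that p in the corrected fit is not given here. Leaving out 1 of those 4 libraries gave 3554 to 7299 genes, 6 to 8 of the 9 and a median of 0.72 to 1.13, where the lone library of a group was assumed to vary like the other group. The genes called fell to 3610 without control replicate 1 and 3554 without APAP+IBU replicate 1. The cause of these shifts was not tested.

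Over all tested genes, deviations from the group mean were not correlated between libraries with the same number (-0.07, -0.02 and -0.04), so the replicate numbers were not used as pairs. Replicate 3 of both groups was nonetheless high in liver RNA, and with 3 libraries per group these correlations cannot exclude a pairing. The paper pooled gonads per independent experiment, each with a pair of dams per condition. The labels do not say which control and exposed pools share an experiment. The replicate block gave 2 genes and 0 of the 9 with all 6 libraries and 39 genes with the length and GC correction. On replicates 1 and 2 the block gave 3817 genes and 7 of the 9, and with the correction 2700 genes, 5 of the 9 and a median of 0.60.

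Direction changed in some settings for several genes, among them Dazl and Tex11. Dazl was above 0 over 6 libraries (0.35) and on replicates 1 and 2 (0.68, called), and below 0 with the length and GC correction. Tex11, at 0.30 over 6 libraries, was below 0 with that correction and the block, and relative to Ddx4 and Dazl. Exo1 was at 0.0031 on total counts, and at 0.0452 and 0.0406 on replicates 1 and 2 in edgeR and DESeq2, but at -0.24 there with the length and GC correction, also with the block (-0.24). With all 6 libraries, the correction put Mus81 at 0.0325, Ddx4 at -0.0002, Dazl at -0.046 and Prr19 at 0.27, and with the block it put Tex11 at -0.0314, Mus81 at 0.0547, Dazl at -0.0445 and Prr19 at 0.27. Relative to Ddx4 and Dazl, Tex11 was at -0.0032 and Mlh3 at -0.0299. Ccnb1ip1 was at 0.0219 on total counts, and at 0.13 and 0.12 on replicates 1 and 2 in edgeR and DESeq2. Prr19 was at 0.0074 with the block. On replicates 1 and 2 the correction put Dazl at -0.0496, Prr19 at 0.26 and Eme1 at 0.0238. Leaving out 1 of the 6 libraries gave -0.29 to 0.18 for Mus81, -0.0899 to 0.0615 for Exo1, -0.0007 to 0.25 for Ddx4, -0.13 to 0.0672 for Ccnb1ip1, -0.35 to 0.19 for Prr19 and -0.27 to 0.0163 for Eme1.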
